A study of Paralichthys olivaceus with 6 samples.

Results

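The genes gpr3, rtn4rl2a and adgrg7 encode cell-surface receptors, and they are 3 of the 24395 genes counted in hindbrain libraries of the olive flounder, Paralichthys olivaceus, a flatfish raised in aquaculture. They were chosen by identifier, as LOC109631659 for gpr3, LOC109627275 for rtn4rl2a and adgrg7, because earlier work on these counts had placed them among the genes that separate the groups best. Their difference between the groups is therefore described here without a test. All 3 passed the filter on low counts, with at least 12 reads in every library.

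The study set 3 bold-titled libraries against 3 shy-titled libraries, from fish sorted by behaviour, with no genetic change or drug named and 1 husbandry regime for both groups. For all 6 libraries the personality characteristic names the opposite group, so every direction below follows the titles and turns round if the characteristic is the correct label. The labels mention RNA from 6 individuals without saying whether fish were pooled, and they give no age or sex. The spread between libraries may therefore be partly technical.

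GPR3 is an orphan receptor that couples to Gs and raises cyclic AMP without an added ligand, and in mammals it is known from neurons and from the oocyte. RTN4RL2, also called Nogo receptor 2, is a leucine-rich-repeat protein held to the membrane by a lipid anchor. It belongs to the receptors through which myelin proteins such as Nogo and MAG restrain axon growth in mammals. ADGRG7, formerly GPR128, is an orphan adhesion G protein-coupled receptor studied mainly in the mammalian intestine, and its ligand is not established.

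Levels are given as CPM, counts scaled to library size with TMM factors, and a ± gives the SD between the 3 libraries of a group where it follows CPM and the SE where it follows a log2 fold. Library totals lay between 18081694 and 20400105 counts in bold-titled libraries and between 21121590 and 22805563 in shy-titled libraries. A count of 3 corresponded to between 0.132 and 0.174 CPM. Removing titled bold 1 changed the number of genes at an unadjusted edgeR p under 0.05 most, to 2393 against 690 with all libraries. The 41 Hox genes were taken whatever their number, and only some of them pattern the hindbrain. Summed over all 41, there were between 10 and 16 reads in bold-titled libraries and between 14 and 29 in shy-titled libraries. None of these genes could be tested and 25 had no read, so the labelled tissue is not marked by Hox expression here.

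The transcript of gpr3 stood higher in each library titled bold than in any library titled shy. It had 16.4, 18.3 and 21.0 CPM in titled bold 1, 2 and 3, from 344, 315 and 422 reads. In titled shy 1, 2 and 3 it had 10.4, 10.1 and 9.75 CPM, from 236, 228 and 206 reads. The groups did not overlap, and the lowest titled bold library was 1.58 times the highest titled shy library. Means were 18.6 ± 2.31 CPM in bold-titled libraries, against 10.1 ± 0.326 CPM in shy-titled libraries (n = 3 each), a log2 fold of 0.88 ± 0.16, or 1.84-fold. The CV between bold-titled libraries was 12.4%, where the read numbers give a counting CV of 5.30%. The CV between shy-titled libraries was 3.23%, below their counting CV of 6.70%. By level, titled bold 3 was followed by titled bold 2 and titled bold 1, and neighbouring libraries within a group had overlapping 95% Poisson intervals. The interval of titled bold 1 ran from 14.7 to 18.3 CPM and that of titled shy 1 from 9.12 to 11.8 CPM.

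For rtn4rl2a the gap between groups was similar in proportion, but the shy-titled libraries differed among themselves. It had 56.7, 53.9 and 71.5 CPM in titled bold 1, 2 and 3, from 1186, 928 and 1434 reads. In titled shy 1, 2 and 3 it had 34.4, 25.5 and 18.3 CPM, from 780, 577 and 386 reads. The lowest titled bold library was 1.57 times the highest titled shy library, and the highest titled bold library was 3.91 times the lowest titled shy library. Means were 60.7 ± 9.46 CPM in bold-titled libraries, against 26.0 ± 8.07 CPM in shy-titled libraries (n = 3 each), a log2 fold of 1.22 ± 0.22, or 2.33-fold. The CV between libraries was 15.6% in those titled bold and 31.0% in those titled shy, above counting CVs of 2.94% and 4.28%. In the order of levels only titled bold 1 and titled bold 2 had overlapping counting intervals, at 53.5 to 60.0 and 50.5 to 57.5 CPM. Without titled shy 1 the log2 fold was 1.48, and without titled shy 3 it was 1.03.

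The transcript of adgrg7 was scarce, and it had the largest fold of the 3. It had 3.25, 4.30 and 4.19 CPM in titled bold 1, 2 and 3, from 68, 74 and 84 reads. In titled shy 1, 2 and 3 it had 0.529, 0.840 and 1.47 CPM, from 12, 19 and 31 reads. The groups did not overlap, and the lowest titled bold library was 2.22 times the highest titled shy library. Means were 3.91 ± 0.576 CPM in bold-titled libraries, against 0.945 ± 0.478 CPM in shy-titled libraries (n = 3 each), a log2 fold of 2.05 ± 0.42, or 4.13-fold. Libraries titled shy varied by a CV of 50.6%, with a counting CV of 23.3%, while bold-titled libraries varied by 14.7%, with a counting CV of 11.6%. The counting interval of titled bold 1, from 2.52 to 4.12 CPM, lay above that of titled shy 3, from 0.997 to 2.08 CPM. Neighbours within each group had overlapping intervals. Without titled shy 1 the log2 fold was 1.77, and without titled shy 3 it was 2.52. In bulk tissue, fewer cells of a type and less RNA per cell cannot be told apart, and this applies to all 3 genes.

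**Figure D1:**
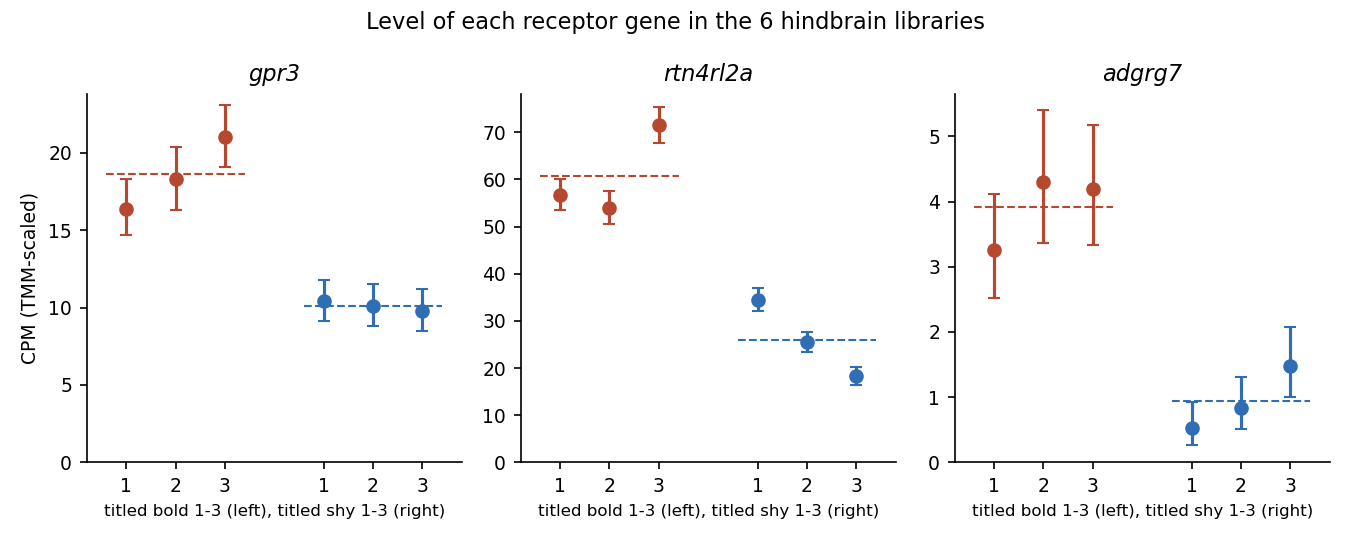
CPM of gpr3, rtn4rl2a and adgrg7 (vertical axes from 0, 1 scale per gene) in each library, with titled bold 1 to 3 on the left and titled shy 1 to 3 on the right. Points are libraries, bars are 95% Poisson intervals of the read count and dashed lines are group means, such as 3.91 CPM for adgrg7 in bold-titled libraries, against 0.945 CPM in shy-titled libraries.

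These separations stand against the following background. Among 19755 genes tested with edgeR's quasi-likelihood method, 0 (0%) had a Benjamini-Hochberg adjusted p under 0.05, while 690, or 3.49%, had an unadjusted p under 0.05, and DESeq2 called 11. All 3 bold-titled libraries lay above all 3 titled shy in 895 genes, or 4.53%, and the groups were disjoint in either direction in 1882, or 9.53%. Because the 3 receptor genes were picked for this difference, their disjoint groups say nothing beyond that choice. A larger log2 fold than that of gpr3 was estimated for 197 tested genes (0.997%), than that of rtn4rl2a for 85 (0.430%) and than that of adgrg7 for 17 (0.0861%). These shares also follow largely from the choice of the genes and are not p-values. The SEs were 0.16, 0.22 and 0.42, and the median SE over tested genes was 0.199.

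Within the groups the 3 genes did not all move alike. Over the 6 libraries Pearson's r of log2 CPM was 0.94 for gpr3 with rtn4rl2a, 0.90 for gpr3 with adgrg7 and 0.72 for rtn4rl2a with adgrg7, and the Spearman rank correlation was 0.94, 0.71 and 0.60. Leaving out single libraries gave r between 0.91 and 0.98, between 0.88 and 0.96 and between 0.62 and 0.88 for these pairs, in the same order. These values largely restate the choice of the genes. After each group's mean was subtracted, r was 0.57 for gpr3 with rtn4rl2a, -0.01 for gpr3 with adgrg7 and -0.82 for rtn4rl2a with adgrg7. The -0.01 joins opposite trends, with r = 0.77 in bold-titled libraries alone and -1.0 in shy-titled libraries alone. For gpr3 with rtn4rl2a these were 0.82 and 1.0, and for rtn4rl2a with adgrg7 0.27 and -1.0. Each rests on 3 libraries, and the CV of gpr3 between shy-titled libraries, 3.23%, lay below its counting CV of 6.70%. The -0.82 came mainly from the shy-titled libraries, where titled shy 1 had the most rtn4rl2a and the least adgrg7. Titled shy 3 had the reverse, and adgrg7 had between 12 and 31 reads in these libraries. Within a library, rtn4rl2a CPM was between 2.95 and 3.45 times gpr3 CPM in bold-titled libraries and between 1.87 and 3.31 times in shy-titled libraries, a ratio of read numbers that is not corrected for transcript length. The ratio of gpr3 to adgrg7 was between 4.26 and 5.06 in bold-titled libraries and between 6.65 and 19.7 in shy-titled libraries. That separation restates the folds of genes chosen for their difference, and the 19.7, in titled shy 1, rests on 12 reads of adgrg7. The points share 6 libraries and their scaling, and no p is given.

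**Figure D2:**
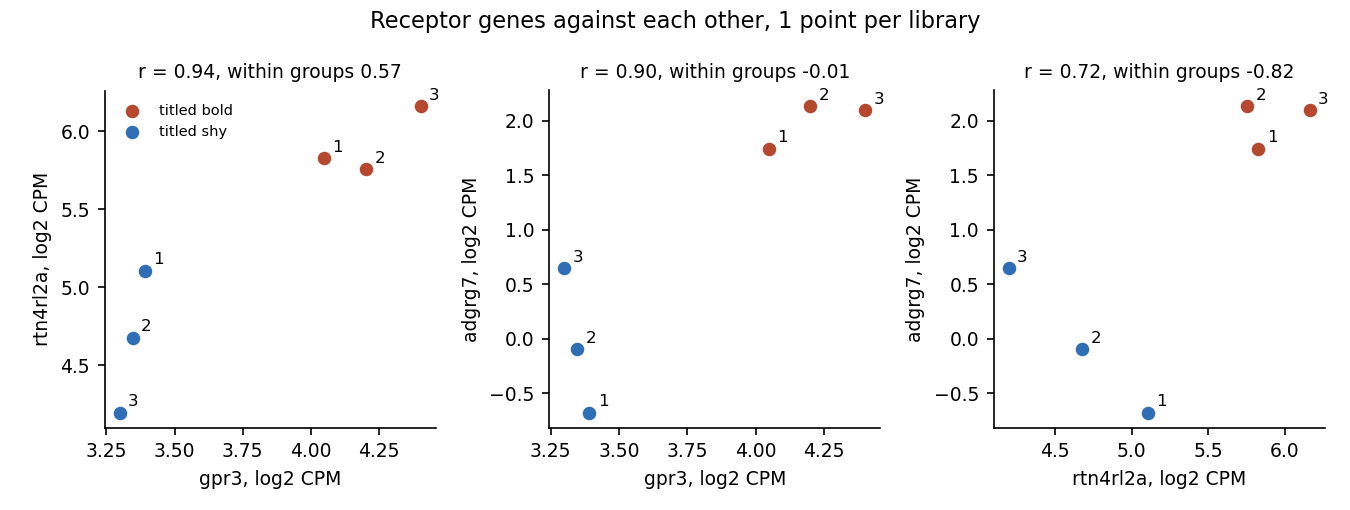
Log2 CPM (prior count 2) of each pair of receptor genes, 1 numbered point per library, titled bold in red and titled shy in blue. The 2 groups are apart in each panel. In the middle and right panels the shy-titled libraries run against the overall trend. In the middle panel r is 0.90 over all 6 and -0.01 within groups, and in the right panel 0.72 and -0.82.

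For the relatives of gpr3 the groups overlapped. GPR6 and GPR12 are its nearest relatives in vertebrates and likewise raise cyclic AMP without an added ligand. The gene gpr6 had 6.88, 6.56 and 7.28 CPM in bold-titled libraries, against 6.57, 4.95 and 6.29 CPM in shy-titled libraries. Its log2 fold was 0.22 ± 0.22 (edgeR adjusted p = 0.955). The gene gpr12 had 8.41, 7.67 and 8.67 CPM in bold-titled libraries, against 8.42, 6.36 and 7.29 CPM in shy-titled libraries. Its log2 fold was 0.17 ± 0.20 (edgeR adjusted p = 0.955). In both genes titled shy 2 was lowest, and without it the log2 folds were 0.10 for gpr6 and 0.07 for gpr12. Without titled shy 1 that of gpr12 was 0.28. A fish relative, gpr185b, named after its values were seen, had 3.11 ± 1.69 CPM in bold-titled libraries, against 2.82 ± 0.470 CPM in shy-titled libraries (n = 3 each). Whether gpr3 differed from these relatives in its fold was not tested.

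In the Nogo receptor family all 3 other genes found by name were estimated higher in bold-titled libraries, and none passed edgeR's test over all genes. The paralog rtn4rl2b had 32.2, 16.6 and 16.9 CPM in bold-titled libraries, against 17.0, 11.5 and 9.61 CPM in shy-titled libraries. The groups overlapped slightly, and titled bold 1 stood well above the rest. Its log2 fold was 0.79 ± 0.31 (edgeR unadjusted p = 0.0323, adjusted p = 0.955), and it was 0.42 without titled bold 1. How reads common to rtn4rl2a and rtn4rl2b were assigned is not known, so values of these paralogs carry that uncertainty. The gene rtn4rl1b, for another receptor of the family, had 79.2 ± 18.6 CPM in bold-titled libraries, against 63.1 ± 6.26 CPM in shy-titled libraries, a log2 fold of 0.33 ± 0.17 that was 0.12 without titled bold 2. The gene rtn4r, for the Nogo receptor itself, had 44.9 ± 4.17 CPM in bold-titled libraries, against 41.0 ± 1.65 CPM in shy-titled libraries, a log2 fold of 0.13 ± 0.11 that was 0.22 without titled bold 1.

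Of the ADGRG family, 14 symbols were sought and 5 rows were found by name, adgrg7 included. The 3 tested receptors other than adgrg7 gave no common direction. The gene adgrg6, whose product is needed for myelination by Schwann cells in zebrafish and mouse, had 1.34, 0.348 and 1.30 CPM in bold-titled libraries, against 1.50, 2.30 and 2.32 CPM in shy-titled libraries. Its log2 fold was -1.02 ± 0.52 (edgeR unadjusted p = 0.0823, adjusted p = 0.955), opposite in sign to that of adgrg7, and the groups were disjoint. Without titled bold 2 it was -0.63. The gene adgrg1 had 6.56 ± 1.54 CPM in bold-titled libraries, against 6.50 ± 1.18 CPM in shy-titled libraries, and adgrg2 had 0.479 ± 0.371 and 0.582 ± 0.209 CPM. The signs of these last log2 folds, 0.02 ± 0.26 for adgrg1 and -0.28 ± 0.65 for adgrg2, changed in fits that left out single libraries, and that of adgrg1 also with library totals alone. The gene adgrg4a was too low to test.

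**Figure D3:**
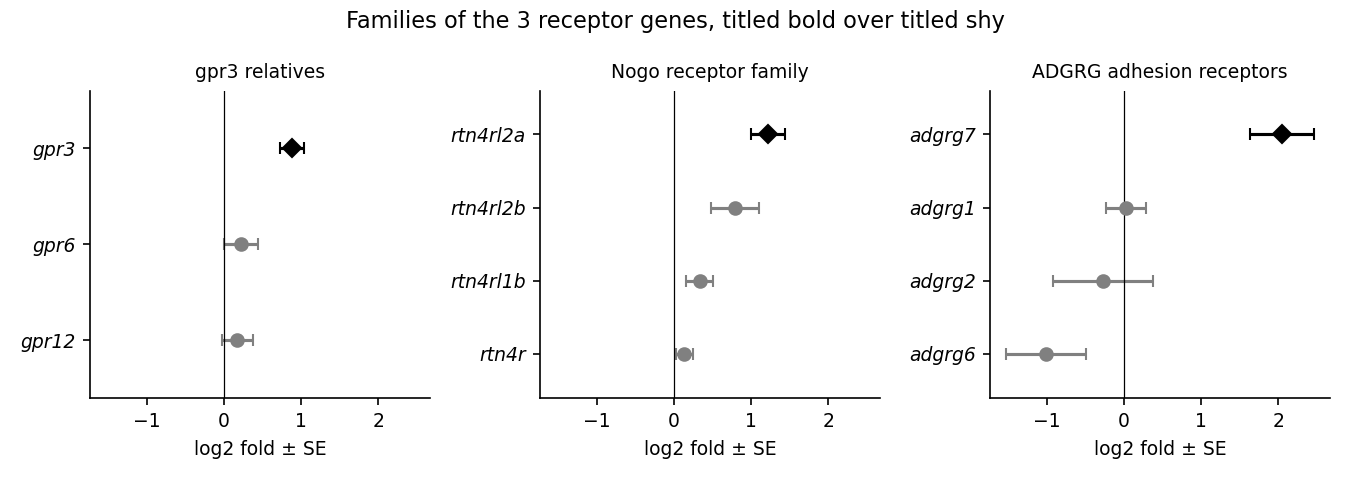
Log2 fold of titled bold over titled shy, with its SE as a bar, for each tested gene of the 3 families. Black diamonds are the 3 receptor genes, at 0.88, 1.22 and 2.05, and grey points are their relatives, of which rtn4rl2b is highest at 0.79 and adgrg6 lowest at -1.02.

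Around the receptors, 13 lists held 137 other genes of their families and signalling routes, of which 125 were tested. Genes entered a list by symbol only. Of 14730 rows named by a LOC number, 5666 had a RefSeq symbol, so the lists may lack members. None was called over all genes by edgeR, with a smallest adjusted p of 0.955. At an unadjusted p under 0.05 there were 3 (2.40%, against 3.49% of all tested genes), all higher in bold-titled libraries. Of the 125, 58 (46.4%) had a log2 fold above 0, against 48.3% of all tested genes, and the medians were -0.02 and -0.01. The groups were disjoint in 7 of them, or 5.60%, against 9.53% of all tested genes.

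Downstream of gpr3, the genes that make, sense and break down cyclic AMP centred near 0. Of 11 genes for Gs proteins and adenylyl cyclases, which make cyclic AMP, 7 were above 0 and 4 below, with a median log2 fold of 0.06. The smallest p in this list belonged to gnas, which encodes the Gs alpha subunit, at 110 ± 9.87 CPM in bold-titled libraries, against 99.4 ± 1.62 CPM in shy-titled libraries, followed by the cyclase gene adcy8 at 24.2 ± 5.20 and 21.0 ± 1.89 CPM. The log2 fold of gnas was 0.14 ± 0.10, and leaving out titled bold 2 gave 0.08, and leaving out titled bold 1 gave 0.23. That of adcy8 was 0.20 ± 0.17, and leaving out titled bold 1 gave 0.04, and leaving out titled bold 2 gave 0.32. Among 16 phosphodiesterase genes, which break cyclic AMP down, 7 were above 0 and 9 below, with a median of -0.05. A pair of rows named pde3a had the smallest p-values there, with log2 folds of -0.53 ± 0.31 and -0.60 ± 0.47. The second, row LOC109629937, came to -0.95 with titled bold 1 left out and to -0.25 with titled shy 1 left out. Of 16 genes for protein kinase A subunits, their inhibitors and Epac, 9 were above 0 and 7 below, with a median of 0.09.

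The kinase inhibitor genes gave the smallest p-values of that last list. The gene pkig had 49.6, 83.4 and 66.8 CPM in bold-titled libraries, against 46.5, 53.5 and 48.4 CPM in shy-titled libraries. Its groups overlapped, and its log2 fold was 0.43 ± 0.18 (edgeR unadjusted p = 0.0416, adjusted p = 0.955) and 0.23 without titled bold 2. The gene pkib had 71.3 ± 9.82 CPM in bold-titled libraries, against 59.9 ± 2.81 CPM in shy-titled libraries, a log2 fold of 0.25 ± 0.12, and 0.13 without titled bold 2. CREB family genes and coactivators, which carry the signal to transcription, had 3 of 11 above 0 and a median of -0.12, with ep300b at 71.1 ± 6.31 CPM in bold-titled libraries, against 82.2 ± 6.85 CPM in shy-titled libraries. The log2 fold of ep300b was -0.21 ± 0.11, and -0.13 without titled shy 1. Receptor kinases and arrestins, which switch receptors off, had 4 of 8 above 0 and a median of -0.08, and the arrestin gene arrb2 had a log2 fold of -0.40 ± 0.28. Leaving out titled bold 1 gave -0.75, and leaving out titled bold 2 gave -0.15. The receptor kinase gene grk4 had a log2 fold of 0.15 ± 0.10, with 0.24 and 0.09 when those libraries were left out. Receptors for lysophospholipids, cannabinoids and melanocortins, the wider relatives of gpr3, had 6 of 12 above 0 and a median of 0.02. Of these the sphingosine phosphate receptor gene s1pr2 had a log2 fold of 0.35 ± 0.21, with 0.55 without titled bold 1 and 0.24 without titled bold 2. The melanocortin receptor gene mc1r had 1.49 ± 0.422 CPM in bold-titled libraries, against 0.878 ± 0.345 CPM in shy-titled libraries, with disjoint groups. Its log2 fold was 0.75 ± 0.47, and 0.46 without titled shy 2.

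For rtn4rl2a, a list of ligands of the Nogo receptor family, made of reticulon genes and mag, held no gene called by edgeR. Which of their products bind that of rtn4rl2a was not tested. The 6 genes had log2 folds between 0.02 and 0.28, with a median of 0.09. The 0.28 was that of rtn2b, at 0.568 ± 0.194 CPM in bold-titled libraries, against 0.464 ± 0.296 CPM in shy-titled libraries. The smallest p-values were those of the reticulon genes rtn1, at 1480 ± 206 CPM in bold-titled libraries, against 1310 ± 53.9 CPM in shy-titled libraries, and rtn3, at 988 ± 215 and 919 ± 44.1 CPM, whose log2 fold of 0.11 ± 0.16 came to -0.06 with titled bold 2 left out and to 0.27 with titled bold 1 left out. That of rtn1 was 0.17 ± 0.13, with 0.08 and 0.29 when the same libraries were left out. The next genes are named for their known role. The Nogo gene rtn4 had 1120, 1420 and 1300 CPM in bold-titled libraries, against 1210, 1290 and 1300 CPM in shy-titled libraries. The myelin gene mag had 229, 303 and 230 CPM in bold-titled libraries, against 247, 233 and 245 CPM in shy-titled libraries. The groups overlapped for both genes. Partner genes had 3 of 17 above 0 and a median of -0.09. Among them lingo2b, which encodes a relative of the co-receptor LINGO1, had 50.6, 50.4 and 46.4 CPM in bold-titled libraries, against 43.4, 36.5 and 40.6 CPM in shy-titled libraries. Its groups were disjoint, with a log2 fold of 0.29 ± 0.11 (edgeR unadjusted p = 0.0292, adjusted p = 0.955). The gene ptprf, for a receptor phosphatase, had a log2 fold of -0.23 ± 0.16, with -0.09 without titled shy 3 and -0.39 without titled shy 2. The genes ngfra and ngfrb, named for their role as the neurotrophin co-receptor of the Nogo receptor in mammals, had log2 folds of -0.16 ± 0.28 and -0.65 ± 0.50.

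Beside adgrg7, 46 symbols for adhesion receptors of other groups matched 18 rows. The 15 tested had 3 above 0 and a median log2 fold of -0.11. The cadherin-like receptor gene celsr1 had 5.07, 4.01 and 4.84 CPM in bold-titled libraries, against 8.24, 7.25 and 5.11 CPM in shy-titled libraries. Its groups were disjoint by a narrow gap, with a log2 fold of -0.57 ± 0.26 (edgeR adjusted p = 0.955). The gene adgrv1, for a very large adhesion receptor, had a log2 fold of -0.40 ± 0.21, with -0.67 without titled bold 1 and -0.28 without titled bold 2. Genes of G alpha subunits other than Gs had 4 of 8 above 0 and a median of -0.03, with gnaz at -0.17 ± 0.13 and gnai3 at 0.33 ± 0.26. Without titled bold 2 gnaz was at -0.07. Without titled shy 1 gnai3 was at 0.14, and without titled shy 2 at 0.61.

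**Figure D4:**
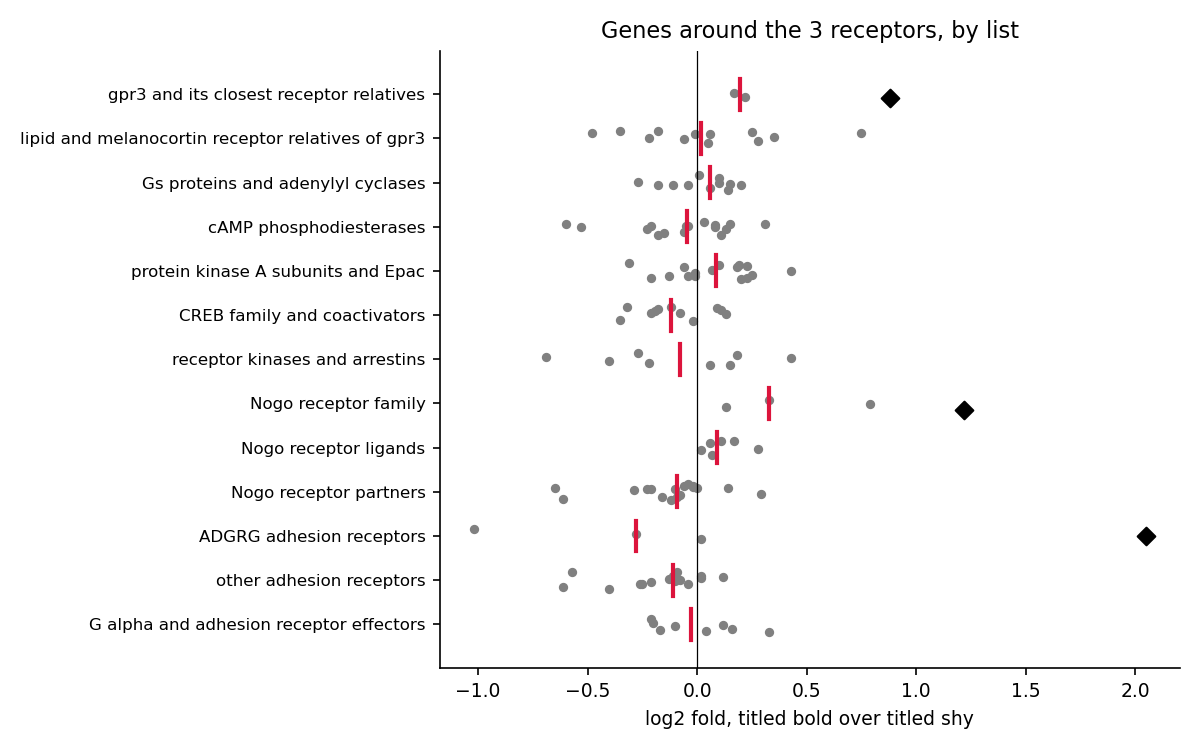
Log2 folds of titled bold over titled shy for the tested genes of 13 lists, 1 grey point per gene, with the 3 receptor genes as black diamonds and the median of the other genes as a red bar. Medians lie between -0.28 and 0.33, and the widest grey points are at -1.02 and 0.79.

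The genes most like each receptor gene were sought among 12948 tested genes with a symbol and a mean of at least 1 CPM, by Pearson's r of log2 CPM over the 6 libraries. An r above 0.9 was reached by 84 genes (0.649%) for gpr3, 68 (0.525%) for rtn4rl2a and 97 (0.749%) for adgrg7. By deviations from the group means it was reached by 136 (1.05%) for gpr3, 122 (0.942%) for rtn4rl2a and 245 (1.89%) for adgrg7. Subtracting the means leaves fewer independent values, so shares by the 2 measures cannot be compared directly. Neither was set against the share that unrelated values would give. Values over all 6 libraries favour genes that separate the groups. They are given as a description without a p.

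The gene most like gpr3 was dusp5, which encodes a phosphatase of the ERK kinases, with r = 0.993. It had 40.1, 48.0 and 51.0 CPM in bold-titled libraries, against 27.6, 26.3 and 27.4 CPM in shy-titled libraries. As for gpr3, titled bold 1 was lowest and titled bold 3 highest among the bold-titled libraries, and the shy-titled libraries were close together. The CV of dusp5 was 12.1% between bold-titled libraries and 2.54% between shy-titled libraries, with counting CVs of 3.35% and 4.09%. Its order among shy-titled libraries therefore lies inside counting error. Next came cdan1, parvaa, rhbdl3 and cunh18orf8, with r between 0.981 and 0.990 and log2 folds between 0.12 and 0.35. By deviations from the group means the closest genes were lemd3, mrpl44, lin28b, nfil3 and exosc4, with r between 0.988 and 0.998. Of these lemd3 was also alike over all 6 libraries, with r = 0.95.

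The gene most like rtn4rl2a was fosb, an AP-1 transcription factor gene that neurons induce with activity, with r = 0.996. It had 5.35, 5.52 and 7.58 CPM in bold-titled libraries, against 3.13, 1.90 and 1.09 CPM in shy-titled libraries, from between 23 and 152 reads. By deviations from the group means r was 0.992, although fosb was lower in titled bold 1 than in titled bold 2, unlike rtn4rl2a. It was the only gene among the 5 closest by both measures for any of the 3 receptor genes. Its CV was 20.2% between bold-titled libraries and 50.4% between shy-titled libraries, with counting CVs of 9.27% and 16.0%. Leaving out single libraries kept the r without subtraction of group means between 0.995 and 0.998. As fosb was picked for the highest r over the same libraries, this range is no separate support. The following genes over 6 libraries were tent2, tepsin, pim3 and cpne4b, with r between 0.973 and 0.983, and by deviations atp9b, cables2b, arhgef16 and triobp, with r between 0.989 and 0.999.

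The gene most like adgrg7 was ablim3, for an actin-binding LIM protein, with r = 0.998. It had 15.9, 16.1 and 16.1 CPM in bold-titled libraries, against 13.4, 14.1 and 14.7 CPM in shy-titled libraries, from between 278 and 333 reads. The log2 fold of ablim3 was 0.19 ± 0.14, smaller than that of adgrg7, and r does not measure that size. Its CV was 0.772% between bold-titled libraries, against 4.37% between shy-titled libraries, below the counting CVs of 5.68% and 5.67%, so its order within a group lies inside counting error. The genes nup35, ankrd29, mgea5 and cryz followed, with r between 0.977 and 0.990, and by deviations mcat, map6d1, golga7ba, cdk11b and alkbh7, with r between 0.994 and 0.997.

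**Figure D5:**
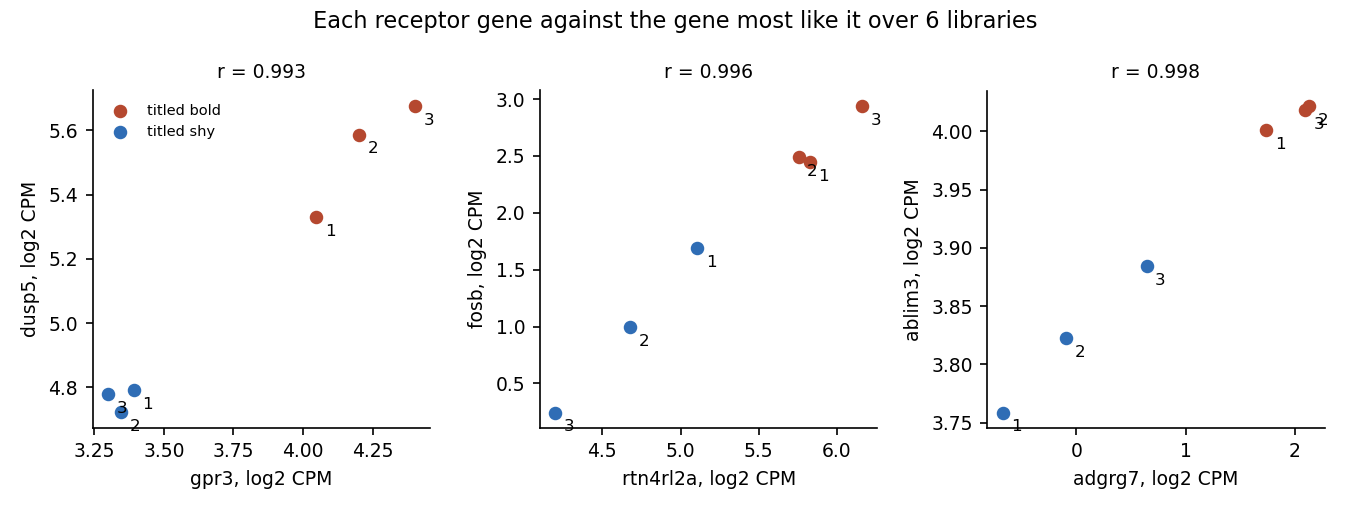
Log2 CPM of each receptor gene (horizontal) against the gene most like it (vertical), 1 numbered point per library, titled bold in red and titled shy in blue. The axes differ in span: fosb runs from 1.09 to 7.58 CPM with rtn4rl2a (r = 0.996), while ablim3 stays between 13.4 and 16.1 CPM across the range of adgrg7 (r = 0.998).

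Genes beside gpr3 and rtn4rl2a on the chromosome, taken by name from the RefSeq annotation of assembly ASM2471397v2, had overlapping groups. The gene wasf2, for an actin regulator, overlaps one end of gpr3 in that annotation, and with the strand setting of the counts unknown, reads of either gene in the overlap cannot be told apart. It had 22.7, 33.9 and 22.5 CPM in bold-titled libraries, against 21.3, 25.9 and 23.7 CPM in shy-titled libraries, which overlapped (log2 fold 0.16 ± 0.18). On the other side of gpr3, cd164l2 had 1.78 ± 0.888 CPM in bold-titled libraries, against 2.12 ± 0.189 CPM in shy-titled libraries. The nearest gene on one side of rtn4rl2a, an unnamed locus, had no read, and crybb1l2 on the other had 0.270 ± 0.192 CPM in bold-titled libraries, against 0.642 ± 0.360 CPM in shy-titled libraries. The annotation holds no gene with the plain symbol adgrg7, only a symbol with a suffix. Whether the counted adgrg7 row is that gene was not settled, so the neighbours of adgrg7 were not described.

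Markers of cell types were read beside these levels, and their part in the differences was not tested. Summed over 7 oligodendrocyte genes, levels ran from 1990 to 3990 CPM in bold-titled libraries and from 2040 to 2420 CPM in shy-titled libraries. The highest was titled bold 2, where mbpa alone had 2390 CPM, against 1030 and 1070 CPM in titled bold 1 and 3. Sums of 6 neuronal genes ran from 4220 to 6010 CPM in bold-titled libraries and from 4230 to 4490 CPM in shy-titled libraries. They were mostly snap25, with 3760, 5700 and 4180 CPM in titled bold 1, 2 and 3. The other tested neuronal genes were highest in titled bold 1 among bold-titled libraries, such as elavl3 with 201, 160 and 198 CPM. The same genes were highest in titled shy 1 among shy-titled libraries, where elavl3 had 223, 189 and 206 CPM. Sums of 7 granule cell genes ran from 568 to 639 CPM in bold-titled libraries and from 536 to 611 CPM in shy-titled libraries. Most of this came from gabra6b, with 341, 431 and 393 CPM in titled bold 1, 2 and 3. In this list 5 tested genes had a log2 fold above 0 and 1 below, with a median of 0.21. Of these, zic2b had disjoint groups, with 13.1 ± 0.888 CPM in bold-titled libraries, against 10.8 ± 0.622 CPM in shy-titled libraries. Over all tested genes the groups were disjoint in 9.53%. The granule cell gene gabra6a, too low to test, was disjoint in the other direction, with 0.286 ± 0.097 and 0.467 ± 0.0671 CPM. Sums of 7 radial glia and astrocyte genes ran from 3110 to 3740 CPM in bold-titled libraries and from 3150 to 3720 CPM in shy-titled libraries. They were mostly glula, with 1810, 2120 and 2380 CPM in titled bold 1, 2 and 3, where slc1a2 had 503, 99.9 and 335 CPM. For 6 meningeal and fibroblast genes they ran from 309 to 447 CPM in bold-titled libraries and from 246 to 455 CPM in shy-titled libraries. The groups overlapped in each of these sums. Of 6 endothelial genes, sums ran from 195 to 199 CPM in bold-titled libraries and from 199 to 230 CPM in shy-titled libraries, and the groups were disjoint by less than 1 CPM. An unadjusted edgeR p under 0.05, which 3.49% of all tested genes had, was found for 1 of 6 tested genes in each of 3 marker lists. These were radial glia and astrocytes, endothelium, and meninges and fibroblasts, and the other marker lists had 0. The genes were named after their values were seen, and each had an adjusted p of 0.955. The astrocyte water channel gene aqp4, with 8 to 33 reads, had 0.518 ± 0.133 CPM in bold-titled libraries, against 1.26 ± 0.297 CPM in shy-titled libraries. The endothelial junction gene cldn5 had 80.8 ± 1.70 and 95.5 ± 6.91 CPM, and the collagen gene col1a1a had 55.1 ± 13.9 and 32.9 ± 11.7 CPM. The groups were disjoint for aqp4 and cldn5, both lower in bold-titled libraries, and overlapped for col1a1a. In the list of aqp4, 2 tested genes had a log2 fold above 0 and 4 below. Among the former, fabp7a had 328 ± 19.8 and 251 ± 67.7 CPM, with disjoint groups.

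Markers of the intestine, where adgrg7 is best known in mammals, were low apart from krt8, which other epithelia share. The intestinal genes cdh17 and fabp2 had 0.390 ± 0.0865 and 1.57 ± 0.210 CPM in bold-titled libraries, against 0.460 ± 0.307 and 1.14 ± 0.247 CPM in shy-titled libraries. The row named cdx1b had no read in any library, while the row named cdx1 had 0, 7 and 2 reads in titled bold 1, 2 and 3. In titled shy 1, 2 and 3 cdx1 had 0, 7 and 4 reads. The level of adgrg7 itself was also low, at 3.91 ± 0.576 CPM in bold-titled libraries, against 0.945 ± 0.478 CPM in shy-titled libraries. Sums of 4 pituitary genes ran from 3.73 to 7.20 CPM in bold-titled libraries and from 4.85 to 6.29 CPM in shy-titled libraries. Purkinje cell genes (4, with 143 to 179 CPM in bold-titled libraries, against 172 to 184 CPM in shy-titled libraries), microglial genes (3, with 34.8 to 45.4 and 33.3 to 62.0 CPM) and erythrocyte genes (5, with 7.03 to 10.8 and 6.25 to 8.57 CPM) also overlapped between the groups. Only markers matched by symbol enter these sums. No row matched hbaa1 or hbba1 for erythrocytes, pomc or gh for the pituitary, or aif1, p2ry12, cx3cr1 or c1qa for microglia. The sums therefore do not show how much blood, pituitary or microglia the libraries held. Of the 4 tested erythrocyte genes 3 had a log2 fold above 0, while gata1b, with 6 to 16 reads, was lower with disjoint groups.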

How the data were processed

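Hindbrain RNA of 6 libraries was sequenced as 100-base read pairs from a stranded mRNA kit, per the labels' protocols. The authors deposited raw counts per gene, made with Trimmomatic 0.30, TopHat2 2.0.11 and HTSeq 0.11.1, per the submitters' processing notes. For the genome build, annotation and strand setting: not given in the sources used here. The files hold no HTSeq summary lines, and totals are sums over genes.

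Groups follow the titles. Counts were fitted for all genes with edgeR 4.0.16 (R 4.3.3): filterByExpr, TMM factors and the two-sided quasi-likelihood test with Benjamini-Hochberg adjustment at 0.05. DESeq2 1.42.0, other scalings and filters, and leaving out each library were tried. The SE of a log2 fold is its absolute value divided by the square root of the edgeR test's F statistic. Intervals are exact Poisson and cover counting error only.

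The 3 genes and all lists were chosen with earlier results of these data known. Named list genes are those with the smallest p of each list and the families of the 3 receptors. Genes most like a member are the 5 with the highest Pearson's r. A further list is not reported here.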

Additional observations from a re-analysis of the deposited data

How the results depend on the processing

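The log2 folds of the 3 receptor genes kept their sign in all 15 alternatives, between 0.78 and 0.98 for gpr3, 1.03 and 1.48 for rtn4rl2a and 1.77 and 2.52 for adgrg7, within the spread between libraries. As these genes were chosen for disjoint groups, leaving out a library could hardly turn a sign, and the kept signs are no separate support. The number of genes called over all genes was 0 in 14 alternatives, the fits leaving out each library included (0 to 0), and 11 with DESeq2. Without titled bold 1, 2393 genes had an unadjusted p under 0.05, and 536 to 622 without another library. With the replicate block, 0 genes were called and 1160 had an unadjusted p under 0.05. Deviations of libraries with the same number had correlations of 0.316, 0.136 and 0.0798, all positive. The main fit did not take the numbers as pairs, and whether such libraries share a source of variation was not tested. Signs turned for rtn3 (-0.06 to 0.27 over fits leaving out a library), adgrg2 (-1.11 to 0.12) and adgrg1 (-0.17 to 0.17, and -0.01 with library totals only), and the cause was not tested. Of 24 alternatives for the correlations between the receptor genes, 9 moved the value and none turned its sign, which the choice of the genes largely sets. Of the 5 genes most like each receptor gene, 1 to 3 remained when a library was left out. Few libraries limit every comparison, and for adgrg7 so does its count, as low as 12 reads.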
